A study of Mus musculus with 15 samples.

Results

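Genes of fatty acid oxidation and of the peroxisome were followed in whole mouse lung through bleomycin injury. The set was a list of 37 gene symbols, set by pathway membership with earlier results of these data known, and all 37 were among the 33340 genes of the count table. It held 18 genes whose products act in mitochondria, 9 whose products act in peroxisomes, 2 that serve both organelles (Eci2 and Crat) and 8 others (4 acyl-CoA synthetases, Acot1, Ppara, Ppargc1a and Pdk4). C57BL/6 young adult male mice received 1 intratracheal instillation of bleomycin at 5 U/kg, a drug that breaks DNA and leaves fibrotic scars in the lung, and whole lungs were taken at day 7, day 14 or day 21. Day 0 stood for lungs labelled as control, and the series set these time points beside each other to follow the course of fibrosis. There were 4 libraries each at days 0, 7 and 14 and 3 at day 21. All mice were wild type and no cell type was sorted, so each library mixes every cell of the lung.

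Cells release energy from fatty acids by removing carbon units from the acyl chain in repeated rounds of dehydrogenation, hydration, a further dehydrogenation and thiolysis. Mitochondria carry out most of this work on long, medium and short chains, which enter as carnitine esters. Peroxisomes shorten very long and branched chains and hand the products on. In the lung, alveolar type 2 cells make the lipid-rich surfactant, and alveolar macrophages take up and degrade part of it. PPAR-alpha, a nuclear receptor that binds fatty acids, and its coactivator PGC-1-alpha turn on many genes of both organelles.

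Libraries held 15652008 to 18020661 counts, and 2.03% to 4.22% of these came from 16 genes of the mitochondrial genome. This share split libraries of the same day: at day 0, replicates 1 and 2 had 2.28% and 2.31% and replicates 3 and 4 had 4.22% and 4.05%. All 4 day 7 libraries lay between 2.03% and 2.15%. At day 14 replicate 1 had 2.102% and the others 3.74% to 4.14%, and the day 21 libraries had 4.01%, 3.19% and 2.66%. The labels name no batch for this split. Day 0 replicate 4 carried a control title but a bleomycin treatment label, and was grouped by its title with day 0, with a fit that left it out run as an alternative. The paper calls the replicates of the lung RNA-seq biological, but the sources do not tie each library to an animal. The series text speaks of 3 replicates a day where the titles number 4, 4, 4 and 3. P-values therefore measure the spread between these samples, and how far that spread is technical cannot be told. Lung markers were present in every library, with a summed level of 4549 to 38010 CPM over 6 alveolar type 2 cell genes. CPM scales the counts of each library to a common total after TMM correction. Cardiac and adipocyte markers, from cells that can come along with a dissected lung, also varied. The 7 cardiac genes summed to 608 CPM in day 7 replicate 4, 723 CPM in day 21 replicate 1 and 17.7 to 260 CPM elsewhere.

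At day 0 the members spanned a wide range of levels per kilobase of exon (RPKM, the scale on which genes are compared with each other here). Acadl, the long-chain acyl-CoA dehydrogenase, was highest at 64.5 ± 11.9 RPKM (SD, n = 4), next to Acaa2, the mitochondrial 3-ketoacyl-CoA thiolase, at 61.6 ± 7.76 RPKM. These 2 did not differ beyond their spread. Etfa followed at 42.6 ± 5.43 RPKM, then Hsd17b4 at 38.9 ± 5.92 RPKM and Acsl4 at 34.0 ± 8.38 RPKM, again within each other's spread. The lowest members were the regulators Ppargc1a (0.870 ± 0.165 RPKM) and Ppara (0.849 ± 0.302 RPKM), and Etfb (0.499 ± 0.217 RPKM). Etfb had only 3 to 17 counts per library, and 53.0% of its exon bases also belong to Gm45233 on the same strand, a gene not analysed here. Its level is therefore uncertain. The other 36 members had at least 9 counts in every library.

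Few members changed at day 7, more fell later, and no member was called higher at days 14 and 21. A gene was called changed, and is said to have risen or fallen, at a Benjamini-Hochberg adjusted p under 0.05 in edgeR's quasi-likelihood test together with a fold change over 1.5. At day 7, Acsl4 rose and Acaa1b and Acsl1 fell, which made 8.1% of the 37 members, against 16.1% of all 17457 genes tested (8.78% higher and 7.36% lower). At day 14, 6 members fell and none rose (Hadh, Acaa1b, Acsl1, Acot1, Ppara and Ppargc1a), 16.2% of the members, against 11.2% of all genes lower and 23.1% changed in either direction. At day 21, 9 members fell and none rose (Hadh, Acaa2, Eci1, Acaa1a, Acaa1b, Abcd3, Acsl1, Acot1 and Ppargc1a), 24.3% of the members, against 10.1% of all genes lower and 22.5% changed in either direction. The median log2 change of the 37 members was 0.07, -0.27 and -0.25 at days 7, 14 and 21, and that of all genes tested 0.01, 0.02 and 0.02. These 3 comparisons share the day 0 libraries. In whole lung, fewer cells of a type and less RNA per cell cannot be told apart. By the adjusted p alone, 6, 14 and 13 members passed at days 7, 14 and 21, against 25.0%, 33.1% and 29.8% of all genes, and 4, 2 and 2 of them were higher than at day 0.

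**Figure D1:**
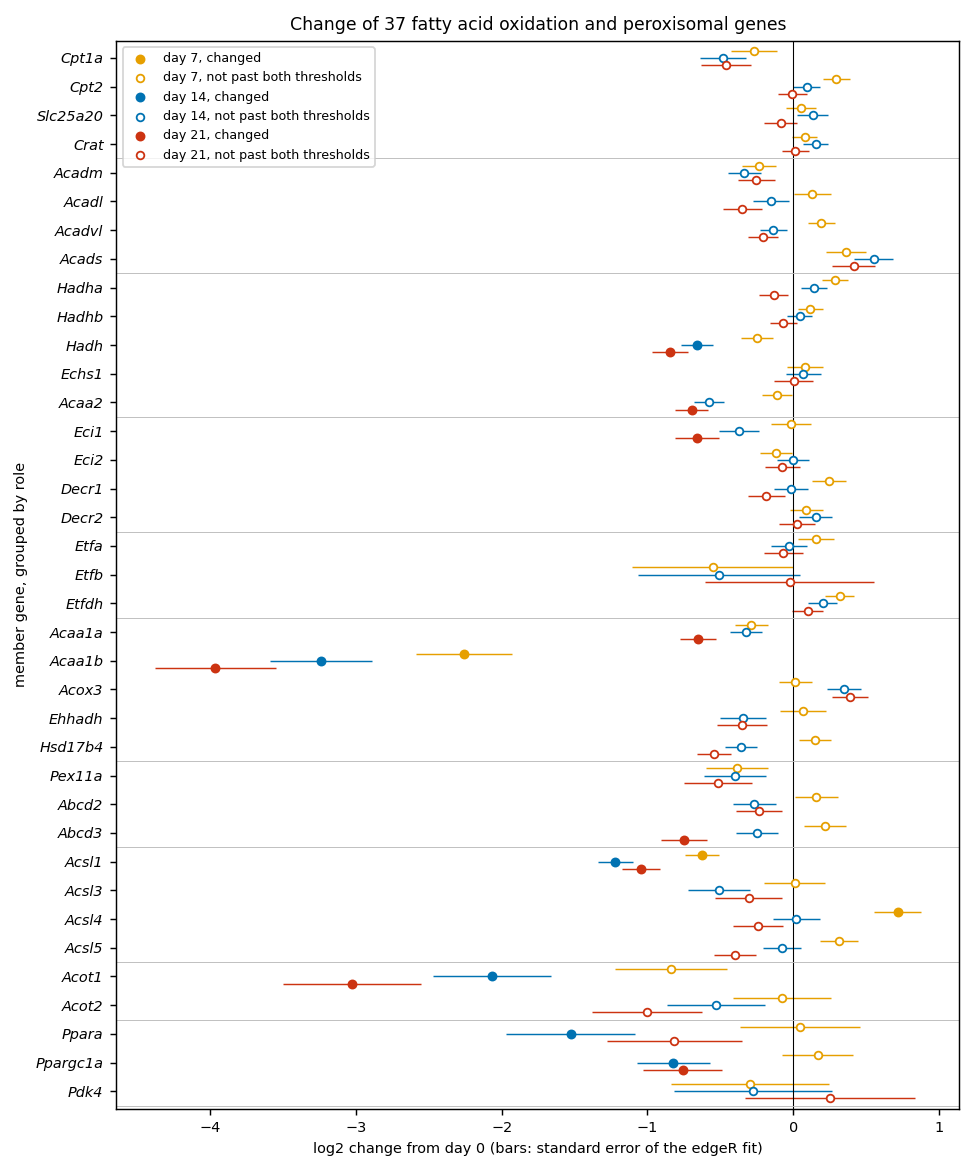
Log2 change from day 0 of each of the 37 members, in order of role, at day 7 (yellow), day 14 (blue) and day 21 (red), with bars for the standard error of the edgeR fit and filled points for members past both thresholds. Acaa1b and Acot1 lie farthest to the left, the only filled point to the right of 0 is Acsl4 at day 7, and most other members lie within 1 log2 unit of 0.

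Median log2 changes at days 14 and 21 were lower for the peroxisomal than for the mitochondrial members. In the wider pathway list described below, that gap was absent at day 14 and smaller at day 21. For the 9 peroxisomal members the median log2 change was 0.07, -0.32 and -0.52 at days 7, 14 and 21. For the 18 mitochondrial members these medians were 0.10, -0.08 and -0.16. Counted by gene, 1, 1 and 3 of the 9 peroxisomal members fell at days 7, 14 and 21, and 0, 1 and 3 of the 18 mitochondrial members, against 7.36%, 11.2% and 10.1% of all genes lower. The peroxisomal shares were 11.1%, 11.1% and 33.3% and the mitochondrial shares 0.0%, 5.6% and 16.7%, so that most were near or below the share of all genes and the day 21 counts rest on few genes. A score per library, the median over a compartment's members of log2 CPM minus the day 0 mean, gave peroxisomal values of -0.01, 0.01, -0.00 and -0.00 at day 0. That mean comes from the same day 0 libraries, so their scores are centred near 0 by construction. How often other gene sets show such a separation was not computed. The peroxisomal score was 0.14, 0.03, 0.05 and -0.08 at day 7, then -0.30, -0.23, -0.29 and -0.27 at day 14, and -0.56, -0.27 and -0.49 at day 21. Every day 14 and day 21 library lay below every day 0 and day 7 library on it. With Acaa1b left out, the peroxisomal score was -0.03 to 0.06 at day 0, -0.27 to -0.21 at day 14 and -0.51 to -0.27 at day 21, again with no overlap. The mitochondrial score was 0.15, 0.07, -0.02 and -0.15 at day 0, 0.05 to 0.15 at day 7, -0.17 to -0.01 at day 14 and -0.28, -0.27 and -0.10 at day 21. Its day 0 range overlapped every later day, and the day 0 replicates with the higher mitochondrial genome share had the lower scores. Among libraries over 3.5% in that share (2 of day 0 and 3 of day 14), the day 14 medians were 0.07 for the mitochondrial and -0.18 for the peroxisomal members. No test was run over the members, which were picked with earlier results of these data known.

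**Figure D2:**
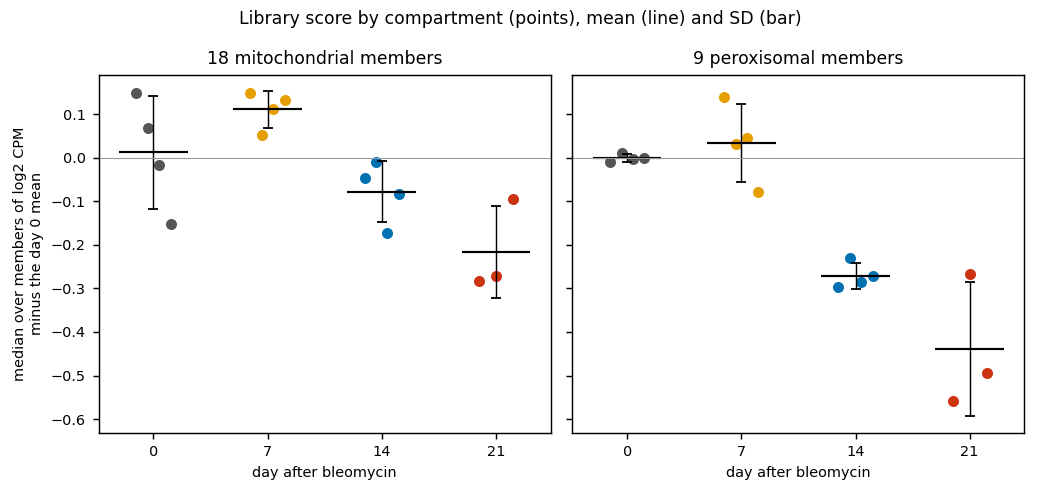
Library score by day for the 18 mitochondrial (left) and 9 peroxisomal members (right), the median over members of log2 CPM minus the day 0 mean, with 1 point per library, a line at the mean and a bar for the SD. Peroxisomal scores at days 14 and 21 (-0.56 to -0.23) lie below all day 0 scores (-0.01 to 0.01), while mitochondrial scores overlap between day 0 and every later day. Subtracting the day 0 mean centres the day 0 scores near 0.

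In the carnitine shuttle, which carries long acyl chains into mitochondria, none of the 4 members was called at any day. Cpt1a (chr19:3322334-3385733, mm10), which attaches the chain to carnitine at the outer membrane and sets the pace of entry, had 207, 219, 123 and 143 CPM at day 0. It had 137, 129, 144 and 164 CPM at day 7, 137, 110, 125 and 125 CPM at day 14, and 119, 140 and 118 CPM at day 21. Replicates 1 and 2 of day 0, with the lower mitochondrial genome share, were above every later library, and replicates 3 and 4 lay within the later range. The log2 change of Cpt1a was -0.27 ± 0.16 (SE) at day 7, -0.48 ± 0.16 at day 14 (edgeR, adjusted p = 0.03) and -0.46 ± 0.17 at day 21, each under the fold threshold. It passed both thresholds without day 0 replicate 3 (-0.63 at day 14 and -0.62 at day 21) and, at day 21, without day 21 replicate 2 (-0.59). Among libraries below 2.5% in mitochondrial genome share (2 of day 0 and all 4 of day 7), Cpt1a was lower at day 7 by 0.59 ± 0.11 on the log2 scale (edgeR, adjusted p = 0.00808), past both thresholds, and among those over 3.5% its day 14 log2 change was -0.16. Cpt2, which returns the chain to CoA in the matrix, had a log2 change of 0.30 ± 0.09 at day 7 (edgeR, adjusted p = 0.0303), below the fold threshold, and of 0.09 and -0.01 at days 14 and 21. The inner membrane translocase Slc25a20 and the carnitine acetyltransferase Crat stayed between -0.09 and 0.15 on the log2 scale at all 3 days.

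Of the 4 acyl-CoA dehydrogenases, which catalyze the first step of each round and differ in the chain length they accept, none passed both thresholds. Acads, the short-chain enzyme, was higher than at day 0 by the adjusted p alone. Its levels were 24.1, 16.9, 22.0 and 21.3 CPM at day 0, 30.5, 25.9, 25.2 and 26.7 CPM at day 7, 30.5, 38.3, 28.1 and 26.6 CPM at day 14, and 30.4, 24.8 and 29.0 CPM at day 21. All later libraries lay above all day 0 libraries. The log2 change was 0.36 ± 0.14 at day 7 (edgeR, adjusted p = 0.0628), 0.55 ± 0.14 at day 14 (edgeR, adjusted p = 0.00592) and 0.41 ± 0.15 at day 21 (edgeR, adjusted p = 0.0425). The day 14 difference passed the fold threshold without day 0 replicate 1, day 14 replicate 3 or day 14 replicate 4, at 0.59 to 0.62. The medium-chain enzyme Acadm had -0.23, -0.34 and -0.25 and the long-chain enzyme Acadl 0.13, -0.16 and -0.35 on the log2 scale, and only the day 14 value of Acadm passed the adjusted p (edgeR, 0.0361). Acadvl, for very long chains, had 0.19, -0.14 and -0.21, and 42.9% of its exon bases overlap Dvl2 on the opposite strand, so its counts depend on the strand setting of the counting, which was not stated.

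Of the 5 genes for the later steps of the mitochondrial round, Hadh and Acaa2 fell and Hadha, Hadhb and Echs1 were not called. Hadh (chr3:131233419-131272101), the 3-hydroxyacyl-CoA dehydrogenase for short and medium chains, had 92.2, 86.2, 96.0 and 88.8 CPM at day 0 and 82.8, 63.7, 87.7 and 71.8 CPM at day 7. It had 59.1, 63.9, 54.8 and 52.4 CPM at day 14 and 56.0, 44.7 and 51.0 CPM at day 21. No day 14 or day 21 library reached the lowest day 0 library. Hadh fell at day 14 (log2 change -0.66 ± 0.11, edgeR, adjusted p = 0.000394) and at day 21 (-0.84 ± 0.12, edgeR, adjusted p = 0.000135), and no left-out library ended either call. Acaa2, the thiolase that releases acetyl-CoA, had 107, 86.2, 99.5 and 81.3 CPM at day 0 and 93.0, 83.3, 89.5 and 79.8 CPM at day 7. It had 65.2, 68.1, 55.9 and 60.7 CPM at day 14 and 62.2, 56.0 and 54.9 CPM at day 21. Days 14 and 21 lay wholly below day 0 for this gene too. Acaa2 fell at day 21 (log2 change -0.69 ± 0.11, edgeR, adjusted p = 0.00036). At day 14 its fold of 1.495 was just under the threshold of 1.5 (log2 change -0.58 ± 0.10, edgeR, adjusted p = 0.000605), and with DESeq2, RLE factors or total count scaling the day 14 value was -0.59 and passed. The trifunctional protein that handles long chains is encoded by Hadha and Hadhb. Hadha had a log2 change of 0.29 ± 0.09 at day 7 (edgeR, adjusted p = 0.0298), below the fold threshold, then 0.14 and -0.14, and Hadhb 0.12, 0.04 and -0.07. Of the 100-base stretches of Hadhb exons 52.8% also occur in its processed pseudogene Gm13910, and reads with several alignments were left out by the authors, so its level is uncertain. Echs1, the short-chain enoyl-CoA hydratase, had 0.08, 0.07 and 0.00.

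Among the enzymes for unsaturated chains and the electron transfer flavoprotein, Eci1 alone was called. Eci1, a mitochondrial isomerase that moves double bonds, had 34.7, 29.7, 33.6 and 27.1 CPM at day 0 and 32.9, 28.5, 32.3 and 29.9 CPM at day 7. It had 19.9, 22.2, 24.6 and 29.7 CPM at day 14 and 17.9, 17.7 and 23.8 CPM at day 21. The day 21 libraries were all below day 0, and day 14 overlapped it through replicate 4. Eci1 fell at day 21 (log2 change -0.66 ± 0.15, edgeR, adjusted p = 0.00409), while the day 14 value of -0.37 ± 0.14 (edgeR, adjusted p = 0.0463) stayed under the fold threshold. Eci2, Decr1 and Decr2 lay between -0.18 and 0.24 on the log2 scale at all days, with no call. Etfa, a subunit of the flavoprotein that collects electrons from the dehydrogenases, had 0.16, -0.03 and -0.07. Etfdh, which passes those electrons to ubiquinone, had 0.32 ± 0.10 at day 7 (edgeR, adjusted p = 0.0297), below the fold threshold, then 0.20 and 0.10. Etfb, with 3 to 17 counts per library, had -0.55 ± 0.55, -0.51 and -0.02, with no call.

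In peroxisomes the largest change of all 37 members was that of Acaa1b, 1 of 2 neighbouring mouse genes for the peroxisomal 3-ketoacyl-CoA thiolase. Acaa1b lies at chr9:119148023-119157093 on the minus strand and Acaa1a at chr9:119339676-119350299 on the plus strand. The windows from 250 bases before to 50 bases after the RefSeq start of both genes (build GRCm38.p6, chr9:119157044-119157343 for Acaa1b and chr9:119341044-119341343 for Acaa1a) are printed because these close copies differed in their course. Capitals mark CCAAT or its reverse complement ATTGG.
Acaa1b: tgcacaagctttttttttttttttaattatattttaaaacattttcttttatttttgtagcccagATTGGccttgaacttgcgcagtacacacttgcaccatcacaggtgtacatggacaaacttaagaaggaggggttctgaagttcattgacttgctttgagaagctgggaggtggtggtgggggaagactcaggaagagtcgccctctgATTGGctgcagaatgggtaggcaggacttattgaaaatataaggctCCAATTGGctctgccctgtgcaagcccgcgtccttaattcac
Acaa1a: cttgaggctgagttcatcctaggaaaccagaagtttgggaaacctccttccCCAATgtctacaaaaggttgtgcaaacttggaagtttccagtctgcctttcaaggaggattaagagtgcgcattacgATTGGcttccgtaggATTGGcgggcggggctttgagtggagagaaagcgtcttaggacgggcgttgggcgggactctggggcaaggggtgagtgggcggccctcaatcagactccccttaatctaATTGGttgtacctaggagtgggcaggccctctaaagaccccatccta
Each window held 4 such matches, and GC content was 43.7% for Acaa1b and 53.3% for Acaa1a. CCAAT on either strand occurred in 37.4% of 32851 RefSeq promoter windows of this length and in 15 of the 32 members with a window. A direct repeat of AGGTCA with 1 base between the copies, an idealized PPAR response element searched on both strands, was in 0.0396% of all windows and in none of the 32, and AGGTCA alone, which the repeat contains, in 16.3% of all windows and in those of Cpt1a, Acadm, Acadvl and Echs1. These matches are a description of letters in a short window.

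Acaa1b had 13.8, 11.7, 17.6 and 18.6 CPM at day 0, 3.002, 1.95, 3.57 and 4.34 CPM at day 7, 0.591, 1.98, 1.77 and 2.17 CPM at day 14, and 0.742, 1.42 and 0.765 CPM at day 21. No later library came near the day 0 range, and the lowest libraries held 10 counts. Acaa1b fell at day 7 (log2 change -2.26 ± 0.33, edgeR, adjusted p = 0.000309), at day 14 (-3.24 ± 0.35, edgeR, adjusted p = 1.01e-05) and at day 21 (-3.96 ± 0.42, edgeR, adjusted p = 1.22e-05). The call held at all 3 days under every alternative run. Acaa1a had 131, 115, 152 and 132 CPM at day 0, 117, 96.7, 109 and 111 CPM at day 7, 87.4, 116, 111 and 109 CPM at day 14, and 75.6, 87.8 and 88.9 CPM at day 21. Only the day 21 libraries were all below day 0. Acaa1a fell at day 21 (log2 change -0.66 ± 0.12, edgeR, adjusted p = 0.00107), after -0.29 ± 0.11 at day 7 and -0.32 ± 0.11 at day 14 (edgeR, adjusted p = 0.037), both under the fold threshold. Of the 100-base stretches of Acaa1b exons 22.6% also occur in Acaa1a, and 21.7% of those of Acaa1a in Acaa1b, so that some reads from these stretches may have been counted for neither gene, which was not tested.

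Among the other peroxisomal enzymes, Hsd17b4 was lower and Acox3 higher without reaching the fold threshold. Hsd17b4, the D-bifunctional protein for very long and branched chains, had 151, 148, 118 and 112 CPM at day 0, 145 to 149 CPM at day 7, 100 to 107 CPM at day 14, and 78.6, 92.6 and 101 CPM at day 21. Days 14 and 21 lay below day 0, in which the replicates with the lower mitochondrial genome share were higher. The log2 change was 0.15 ± 0.11 at day 7, -0.36 ± 0.11 at day 14 (edgeR, adjusted p = 0.0189) and -0.54 ± 0.12 at day 21 (edgeR, adjusted p = 0.00293). Without day 0 replicate 3, day 0 replicate 4, day 21 replicate 2 or day 21 replicate 3, the day 21 value passed the fold threshold at -0.60 to -0.67. Acox3, an acyl-CoA oxidase for branched chains, had 53.2, 45.8, 61.3 and 64.2 CPM at day 0, 52.7 to 62.9 CPM at day 7, 63.0, 70.2, 72.03 and 80.4 CPM at day 14, and 75.0, 78.4 and 67.3 CPM at day 21. Most of these later libraries were above day 0, with a log2 change of 0.35 ± 0.11 at day 14 (edgeR, adjusted p = 0.0286) and 0.39 ± 0.12 at day 21 (edgeR, adjusted p = 0.0254). Ehhadh, the L-bifunctional protein, lay at 11.1 to 11.7 CPM at day 0, 7.27 to 10.2 CPM at day 14 and 8.06 to 9.46 CPM at day 21, with no overlap, and its log2 changes of -0.34 ± 0.16 and -0.35 ± 0.17 did not pass the adjusted p (edgeR, 0.106 and 0.139).

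At the peroxisomal membrane, Abcd3, an ABC transporter that imports long and branched acyl-CoA, fell at day 21. It had 169, 186, 158 and 144 CPM at day 0 and 205, 186, 190 and 182 CPM at day 7. It had 105, 126, 149 and 172 CPM at day 14 and 79.3, 110 and 104 CPM at day 21. The day 21 libraries were all below day 0, whereas day 14 overlapped it. The log2 change was 0.22 ± 0.14 at day 7, -0.25 ± 0.14 at day 14 and -0.75 ± 0.16 at day 21 (edgeR, adjusted p = 0.00244), and the last call held without any 1 library. Abcd2, a related transporter for very long chains, had 0.16, -0.27 and -0.23, and Pex11a, which helps peroxisomes divide, -0.38, -0.40 and -0.52, with no call. Without day 7 replicate 4, Pex11a passed both thresholds at day 7 (-0.60, edgeR, adjusted p = 0.0453).

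Acyl-CoA synthetases, which activate fatty acids by joining them to CoA, went in different directions. Acsl1 (chr8:46471037-46536051) had 90.9, 101, 91.1 and 84.7 CPM at day 0 and 57.8, 53.7, 57.6 and 68.7 CPM at day 7. It had 45.2, 41.4, 35.8 and 35.3 CPM at day 14 and 52.9, 41.3 and 39.1 CPM at day 21. Every later library was below every day 0 library. Acsl1 fell at day 7 (log2 change -0.63 ± 0.12, edgeR, adjusted p = 0.00183), at day 14 (-1.22 ± 0.12, edgeR, adjusted p = 4.62e-06) and at day 21 (-1.05 ± 0.13, edgeR, adjusted p = 4.63e-05). Without day 7 replicate 2 the day 7 value was -0.58 and just missed the fold threshold, while the day 14 call held under every alternative. Acsl4 (chrX:142317993-142390535), which prefers arachidonic acid and related polyunsaturated chains, was the only member called higher at any day. Its levels were 205, 236, 135 and 159 CPM at day 0, 289, 335, 271 and 313 CPM at day 7, 197, 153, 169 and 228 CPM at day 14, and 148, 163 and 156 CPM at day 21. Day 7 stood above day 0, and days 14 and 21 lay within the day 0 range. Acsl4 rose at day 7 (log2 change 0.72 ± 0.16, edgeR, adjusted p = 0.00547), with 0.02 ± 0.16 at day 14 and -0.24 ± 0.17 at day 21. All day 7 libraries had a low mitochondrial genome share, and against the 2 day 0 libraries with a low share the day 7 log2 change was 0.44 ± 0.12 (edgeR, adjusted p = 0.0351), under the fold threshold. Without day 0 replicate 3 it was 0.57, also under it. Acsl5 had log2 changes of 0.32 ± 0.13, -0.08 ± 0.13 and -0.40 ± 0.14, of which the last passed the adjusted p alone (edgeR, 0.0456). Acsl3 had 0.01, -0.51 and -0.30, with 1 high library at day 14 and 1 at day 21 (28.2 CPM in day 14 replicate 1 and 35.7 CPM in day 21 replicate 1, while the remaining libraries of those days lay at 16.01 to 21.4 CPM). Without these libraries its log2 change was -0.71 at day 14 (edgeR, adjusted p = 0.0208) and -0.74 at day 21 (edgeR, adjusted p = 0.017).

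**Figure D3:**
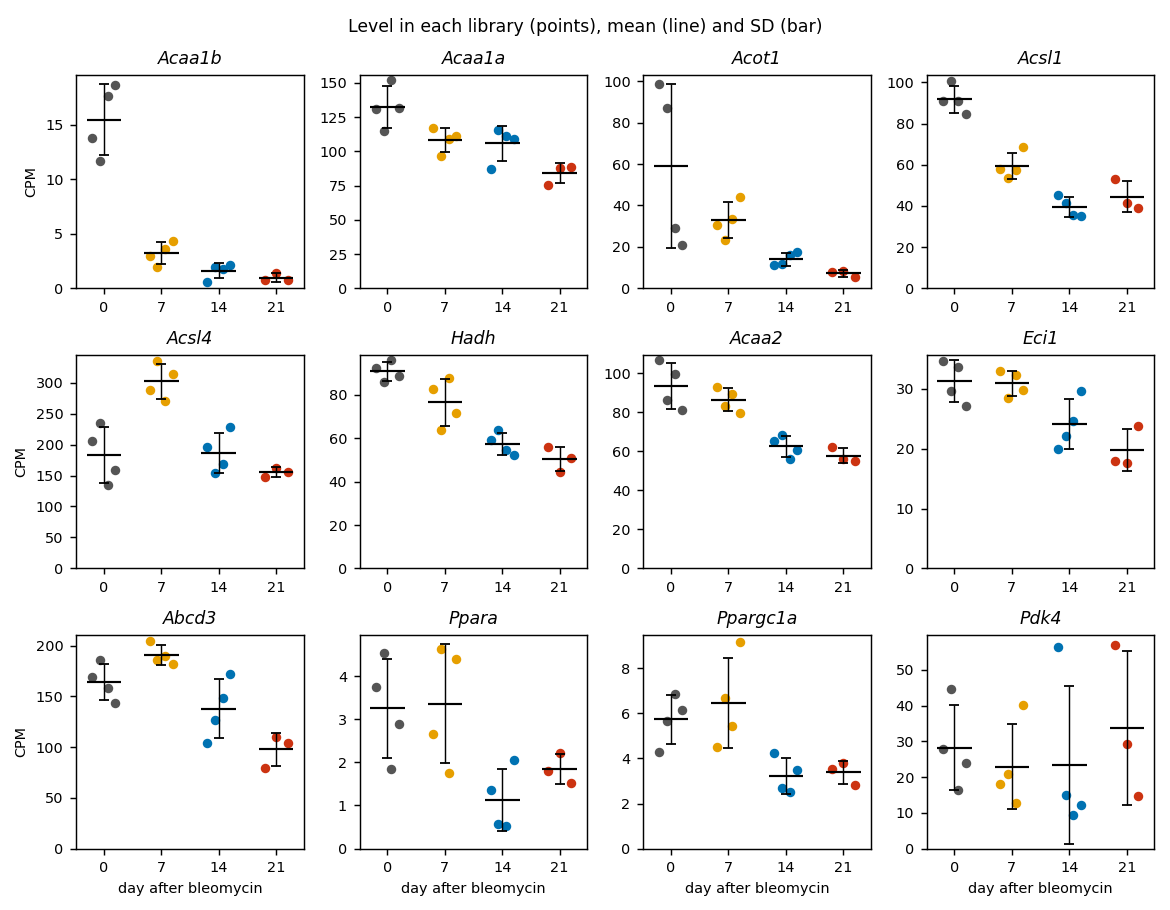
CPM of 12 members in each library at days 0, 7, 14 and 21, with 1 point per library, a line at the group mean and a bar for the SD. Acaa1b drops from 11.7 to 18.6 CPM at day 0 to at most 2.17 CPM at days 14 and 21, Acsl4 peaks at day 7, and the day 0 values of Acot1 fall into a high and a low pair.

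Acyl-CoA thioesterases cleave acyl-CoA back to the free fatty acid, and Acot1 in the cytosol and Acot2 in mitochondria are neighbours on chromosome 12. The same windows are shown for them (build GRCm38.p6, plus strand, chr12:84009252-84009551 for Acot1 and chr12:83987611-83987910 for Acot2), since this second pair of close copies also differed in its calls. Capitals again mark CCAAT or ATTGG.
Acot1: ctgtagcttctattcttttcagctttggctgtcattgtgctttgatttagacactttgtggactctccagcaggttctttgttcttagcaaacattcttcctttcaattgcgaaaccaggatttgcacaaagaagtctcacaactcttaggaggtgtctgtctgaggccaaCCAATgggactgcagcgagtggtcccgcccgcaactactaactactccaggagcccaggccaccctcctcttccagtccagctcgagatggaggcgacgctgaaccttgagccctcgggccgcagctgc
Acot2: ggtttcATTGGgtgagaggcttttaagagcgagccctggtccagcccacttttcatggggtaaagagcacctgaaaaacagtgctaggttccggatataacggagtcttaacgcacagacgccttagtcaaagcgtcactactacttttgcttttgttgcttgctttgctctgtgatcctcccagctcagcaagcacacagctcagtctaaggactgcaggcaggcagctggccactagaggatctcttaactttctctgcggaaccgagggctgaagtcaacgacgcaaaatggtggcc
There was 1 match in each window, and GC content was 52.0% and 51.3%. Of the 100-base stretches of their exons, 16.5% of those of Acot1 occur in Acot2 and 17.1% of those of Acot2 in Acot1.

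Acot1 had 98.5, 87.3, 29.1 and 20.8 CPM at day 0, 30.7, 23.5, 33.2 and 44.2 CPM at day 7, 11.1, 11.9, 15.9 and 17.3 CPM at day 14, and 7.92, 8.38 and 5.35 CPM at day 21. The day 0 libraries formed a high pair (replicates 1 and 2) and a low pair (replicates 3 and 4), the same pairs that the mitochondrial genome share made, and days 14 and 21 lay below both. Acot1 fell at day 14 (log2 change -2.07 ± 0.40, edgeR, adjusted p = 0.00121) and at day 21 (-3.03 ± 0.47, edgeR, adjusted p = 0.00027), with -0.84 ± 0.39 at day 7, which became a call without day 0 replicate 4 (-1.14). An exact two-sided permutation test over the 4 and 4 libraries gave p = 0.0286 for day 14, the smallest value possible, and 0.0429 after adjustment over the 3 such tests run. The 3 members so tested had been called at day 14 in these same libraries, and the adjustment does not cover that choice. Against the 2 day 0 libraries of like mitochondrial share, the day 14 log2 change was -0.74 ± 0.22 (edgeR, adjusted p = 0.0504) and the day 7 log2 change -1.51 ± 0.20 (edgeR, adjusted p = 0.00203), so that the day 14 call was lost and a day 7 call was gained. Acot2 had 24.5, 21.5, 5.90 and 8.59 CPM at day 0 and split in the same way. It lay at 12.7 to 15.6 CPM at day 7, 7.78 to 13.5 CPM at day 14 and 6.37 to 8.95 CPM at day 21, between or within the day 0 values. Its log2 change was -0.08 ± 0.34, -0.53 ± 0.34 and -1.002 ± 0.38 at days 7, 14 and 21, with no call in this fit. The day 21 difference passed both thresholds with DESeq2 (-1.03, adjusted p = 0.0222), without the filter on low counts, with the cardiac covariate, and without day 0 replicate 3 (-1.295) or day 0 replicate 4 (-1.22), and the day 14 difference did so without day 0 replicate 3 (-0.81). Within libraries under 2.5% it was -0.70 at day 7 (edgeR, adjusted p = 0.0084), and within those over 3.5% it was 0.52 at day 14 (edgeR, adjusted p = 0.259).

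**Figure D4:**
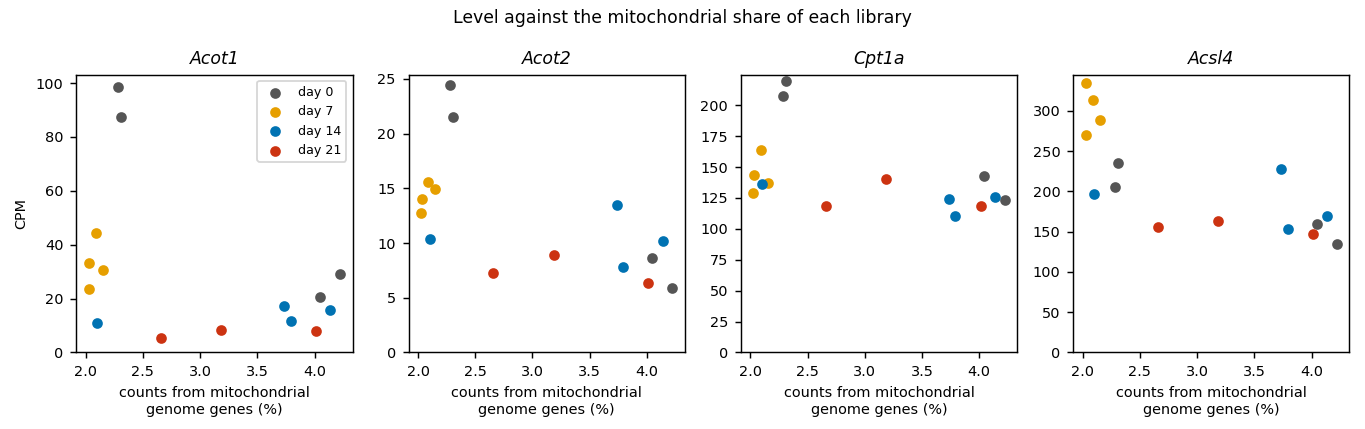
CPM of Acot1, Acot2, Cpt1a and Acsl4 in each library against the percent of its counts from mitochondrial genome genes, colored by day. At day 0 the 2 libraries near 2.3% have higher levels of all 4 genes than the 2 above 4%, and no day 7 library lies above 2.15%.

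Of the 3 regulators, Ppara and Ppargc1a fell at day 14, Ppargc1a fell also at day 21, and Pdk4 was not called. Ppara (chr15:85734983-85802819) had 3.75, 4.54, 1.84 and 2.90 CPM at day 0, 2.66, 4.63, 1.76 and 4.40 CPM at day 7, 1.36, 0.574, 0.515 and 2.05 CPM at day 14, and 1.79, 2.22 and 1.53 CPM at day 21. Day 14 overlapped day 0 through its replicate 4. Ppara fell at day 14 in the fit (log2 change -1.53 ± 0.44, edgeR, adjusted p = 0.0148), and the exact two-sided permutation test over 4 and 4 libraries gave p = 0.0571, unchanged by adjustment over 3 tests. At day 21 it had -0.82 ± 0.46 (edgeR, adjusted p = 0.203), and among libraries over 3.5% in mitochondrial share the day 14 log2 change was -1.19 ± 0.61, without a call (edgeR, adjusted p = 0.215). Ppargc1a, which encodes PGC-1-alpha (chr5:51454250-51567726), had 4.27, 5.68, 6.86 and 6.14 CPM at day 0, 4.53, 6.70, 5.44 and 9.16 CPM at day 7, 4.25, 2.68, 2.52 and 3.501 CPM at day 14, and 3.53, 3.82 and 2.82 CPM at day 21. The groups at days 14 and 21 lay below day 0, narrowly so in day 14 replicate 1. Ppargc1a fell at day 14 (log2 change -0.82 ± 0.25, edgeR, adjusted p = 0.0194) and at day 21 (-0.76 ± 0.27, edgeR, adjusted p = 0.0462). For day 14 the exact two-sided permutation test gave p = 0.0286, the smallest value possible, and 0.0429 adjusted over 3 tests. The day 14 call was lost without day 14 replicate 2 (edgeR, adjusted p = 0.0536) or replicate 3 (0.054), and with cardiac markers as a covariate (-0.65, edgeR, adjusted p = 0.0562), and the day 21 call without any of 6 of the 7 libraries (edgeR, adjusted p = 0.0561 to 0.131). The exception was day 0 replicate 1. Pdk4, a PPAR target whose kinase shuts off pyruvate dehydrogenase and so favors fatty acids as fuel, had 28.0, 44.6, 16.4 and 23.9 CPM at day 0, 12.7 to 40.3 CPM at day 7, 56.4, 15.1, 9.44 and 12.3 CPM at day 14 and 57.0, 29.2 and 14.6 CPM at day 21. Its log2 changes of -0.30, -0.28 and 0.25 had standard errors of 0.54 to 0.58, and no call was made.

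Members were also compared between the later days, and the calls were all falls. From day 7 to day 14, Acsl1, Acsl4, Ppara and Ppargc1a fell and no member rose, 10.8% of the members, against 3.23% of all genes lower, 2.77% higher and 6.00% changed in either direction. From day 7 to day 21, Hadh, Eci1, Hsd17b4, Acaa1b, Abcd3, Acsl4, Acsl5, Acot1 and Ppargc1a fell and no member rose, 24.3% of the members, against 4.34% of all genes lower, 5.20% higher and 9.54% changed in either direction. From day 14 to day 21 edgeR called no member and 0.00% of all genes, DESeq2 also called no member, and 5 members had an unadjusted p under 0.05 in edgeR. The median log2 change of the 37 members was -0.26 from day 7 to day 14, -0.39 from day 7 to day 21 and -0.12 from day 14 to day 21, and that of all genes tested was 0.00 in each. Acot1 had the largest later fall, with a log2 change of -2.19 ± 0.46 from day 7 to day 21 (edgeR, adjusted p = 0.00893). Abcd3 fell by 0.96 ± 0.16 on the log2 scale (edgeR, adjusted p = 0.00283), Acsl4 by 0.96 ± 0.18 (edgeR, adjusted p = 0.00478) and Hsd17b4 by 0.69 ± 0.12 (edgeR, adjusted p = 0.00331) over the same interval. Of the 9 calls between days 7 and 21, 5 held without any 1 library, and of the 4 between days 7 and 14 none did. With the mitochondrial genome share as a covariate, Acot1 (-1.57), Hsd17b4 (-0.49) and Ppargc1a (-0.93) lost their calls between days 7 and 21. Without the 2 libraries of highest cardiac signal, Acot1 (-2.08), Acsl5 (-0.57), Eci1 (-0.59), Acaa1b (-1.37) and Ppargc1a (-0.74) lost theirs and Acaa2 (-0.68) gained one. With the adipocyte covariate none of the 9 was kept, though 6 stayed past the fold threshold, with standard errors 1.38 to 1.62 times as large.

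Beyond the members, a list of 92 further genes of these pathways had 87 tested genes, of which 4 rose and 7 fell at day 7, 5 rose and 16 fell at day 14, and 2 rose and 13 fell at day 21. Their median log2 change was -0.05, -0.08 and -0.09. The changed share was 12.6%, 24.1% and 17.2%, against 16.1%, 23.1% and 22.5% of all genes, and the share lower 8.0%, 18.4% and 14.9%, against 7.36%, 11.2% and 10.1%. The 24 tested genes of peroxisomal metabolism on this list had medians of -0.03, -0.09 and -0.19, and the 16 of mitochondrial fatty acid oxidation 0.06, -0.09 and -0.07, so that the gap seen between the member compartments was absent here at day 14 and smaller at day 21. None of the 15 peroxisome biogenesis genes changed at day 7, 1 fell at day 14 and 2 at day 21 (6.7% and 13.3%), near the 11.2% and 10.1% of all genes lower at those days. Of 10 other PPAR target genes tested, 2 rose and 3 fell at day 7, 1 rose and 6 fell at day 14, and 3 fell at day 21, against 7.36%, 11.2% and 10.1% of all genes lower. Among the largest falls were those of Ucp3, a mitochondrial carrier of muscle and fat (log2 change -1.47, -1.83 and -3.14), Cat, the peroxisomal catalase (-1.80 ± 0.19 at day 21, edgeR, adjusted p = 1.24e-05), Esrrg, an estrogen-related receptor that partners PGC-1-alpha (-1.47 at day 14) and the kinase gene Pdk2 (-0.70, -1.08 and -1.11). With the adipocyte marker sum as a covariate, Ucp3 had -0.31 at day 14 and -1.51 at day 21, with both calls lost, and within libraries under 2.5% in mitochondrial share it had -0.86 at day 7, also without a call. Its day 21 libraries had 0.309, 0.171 and 1.53 CPM, and as few as 3 counts were found in a library. Cat had 306 to 387 CPM at day 0, 186 to 250 CPM at day 7, 106 to 183 CPM at day 14 and 84.5 to 110 CPM at day 21, and its day 21 call held under every alternative. Largest rises were those of Acsl6 and of the brain-type Cpt1c (0.86 and 0.90 at days 14 and 21). Pdk3 (0.71 at day 7), Fabp5 (0.72 at day 14) and Slc27a3 (0.63 at day 7) came next. Acsl6, counted as a rise at all 3 days, held 2 counts or fewer in each day 0 library. It therefore passed the count filter only through later libraries. Against a floor of 3 counts per library (0.183 CPM) its mean was at least 4.86-fold, 9.99-fold and 20.9-fold higher at days 7, 14 and 21. At day 14 this was 4.30-fold without replicate 1, and single libraries ran from 0.229 to 4.96 CPM. Both Cpt1c calls were lost with the adipocyte covariate (1.15 and 1.21), and the day 14 call also within libraries over 3.5% (0.68). The calls of Esrrg and Fabp5 at day 14 and of Ucp3 and Slc27a3 at day 7 were each lost without any of at least 2 single libraries.

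Marker sums of other cell types moved with the days, and their part in the changes above was not tested beyond fits with 1 marker sum as a covariate. Summed over 7 adipocyte genes, the level was 19.5 to 53.3 CPM at day 0, 7.87 to 94.3 CPM at day 7, 1.06 to 3.89 CPM at day 14 and 1.08 to 2.72 CPM at day 21, and 6 of the 7 (Adipoq, Plin1, Cfd, Lep, Retn and Ucp1) were at 0 in some library. With this sum as a covariate, which did not overlap between day 0 and days 14 or 21, 2 members kept a call at day 14 (Acaa1b and Acsl1) and 2 at day 21 (Acaa1b and Acaa2). Standard errors of the 4 and 7 lost calls were 1.66 to 1.94 times as large in that fit, and 2 and 4 of them stayed past the fold threshold. At day 14 the log2 changes were -2.07 for Acot1 and -1.80 for Ppara, against -0.58 for Hadh and -0.41 for Ppargc1a. At day 21 they were -3.03 for Acot1, -0.88 for Acsl1, -0.81 for Abcd3 and -0.76 for Hadh, against -0.56 for Eci1, -0.43 for Acaa1a and -0.31 for Ppargc1a. Acaa1b, which kept its calls, moved from -3.24 to -2.21 at day 14 and from -3.96 to -2.77 at day 21. Alveolar type 2 cell markers went from 27910 to 38010 CPM at day 0 to 18230 to 26720, 7139 to 21060 and 4549 to 9854 CPM at days 7, 14 and 21. Club cell markers (3 genes) went from 27160 to 33770 CPM to 9383 to 12080, 2968 to 7192 and 1461 to 5627 CPM. Fibroblast markers (5 genes) went from 1304 to 1985 CPM to 4809 to 6056, 3579 to 13110 and 4814 to 9427 CPM, and alveolar macrophage markers (6 genes) lay at 695 to 1011, 490 to 1227, 944 to 3443 and 1180 to 2448 CPM. Endothelial markers (5 genes) lay at 2391 to 2729 CPM at day 0 and below that range in every later library, at 1668 to 2115, 1316 to 2193 and 1700 to 2134 CPM. The 4 leukocyte genes lay at 112 to 276 CPM throughout. Cardiac markers, with Myh6 and Nppa at 0 in some libraries, were highest in single libraries of days 7 and 21, and without those 2 libraries Acaa1a (-0.58) and Ppargc1a (-0.79) lost their calls at day 21, while Acaa1b, Acsl1, Acot1, Hadh, Acaa2, Eci1 and Abcd3 kept theirs.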

How the data were processed

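Polyadenylated RNA of whole lung was sequenced in 15 libraries. The authors trimmed reads with TrimGalore, aligned them to mm10 (GRCm38) with HISAT2 2.1.0, left multimapped reads out, and counted reads per Ensembl gene with HTSeq 0.6.0. The deposited values are these raw counts. The annotation release and strand setting were not given in the sources used here, so overlapping genes carry that uncertainty. Symbols and coordinates came from GENCODE M21, which matched 33267 of 33340 identifiers. Promoter windows came from RefSeq (GRCm38.p6).

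Counts were analysed with edgeR 4.0.16 in R 4.3.3 (filterByExpr on day group, 17457 genes kept, TMM, glmQLFit, glmQLFTest, day as the only term, all 15 libraries in 1 fit). The common biological coefficient of variation was 22.8%. Benjamini-Hochberg adjustment covered all genes tested, and changed meant an adjusted p under 0.05 and more than a 1.5-fold change, as in the study. Standard errors are on the log2 scale. The script was tested on simulated counts. Log2 CPM used a prior count of 2, and exact permutation tests were run for 3 members at day 14. RPKM divides CPM by exon length in kilobases. Counting floors cover counting error only. Alternatives were DESeq2 1.42.0, other scalings and filters, glmTreat, the 2 groups alone, replicate blocks, left-out libraries and composition covariates. The 2 fits within mitochondrial-share sets and the fit without the 2 libraries of highest cardiac signal were chosen after seeing the data. Members and lists were chosen with earlier results of these data known. All members are described, and further pathway genes are named where they had the up to 3 largest called rises or falls at a day, except for 1 gene that is not reported here.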

Additional observations from a re-analysis of the deposited data

Results flagged for a closer look

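Pdk4 in day 14 replicate 1 stood apart from the other libraries of its day, at 56.4 CPM against 9.44 to 15.1 CPM. It was the only such value among 111 member and day groups of 4 libraries (0.9%), where chance gives about 5%. The same library had the lowest mitochondrial genome share of its day.

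For 13 member and interval pairs, the change from day 0 differed between 2 later days, tested as the contrast between those days in edgeR with Benjamini-Hochberg adjustment. From day 7 to day 14 the log2 difference was -0.59 for Acsl1, -0.69 for Acsl4, -1.57 for Ppara and -0.99 for Ppargc1a. Each of these 4 calls was lost without any of 3 or more single libraries, among them day 7 replicate 4 and day 14 replicate 3 for all 4, where the values were -0.52 and -0.55 for Acsl1, -0.68 and -0.65 for Acsl4, -1.42 and -1.33 for Ppara, and -0.78 and -0.89 for Ppargc1a.

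From day 7 to day 21 the log2 difference was -0.96 for Abcd3, -0.96 for Acsl4, -0.71 for Acsl5, -0.69 for Hsd17b4 and -2.19 for Acot1, and these 5 calls held without any 1 library. Those of Hsd17b4 (-0.49) and Acot1 (-1.57) did not hold in the fit with mitochondrial share as covariate, those of Acsl5 (-0.57) and Acot1 (-2.08) failed without the 2 libraries of highest cardiac signal, and all 5 failed with the adipocyte covariate or glmTreat. In the adipocyte fit they stayed past the fold threshold with larger standard errors (Abcd3 -1.01, Acsl4 -1.18, Acsl5 -0.64, Hsd17b4 -0.85 and Acot1 -2.19). The log2 difference from day 7 to day 21 was -0.60 for Hadh, -0.64 for Eci1, -1.71 for Acaa1b and -0.93 for Ppargc1a. Without day 21 replicate 1 the calls of Eci1 (-0.59) and Acaa1b (-1.56) were lost, that of Hadh was lost without day 7 replicate 1 (-0.57), day 7 replicate 3 (-0.53) or day 21 replicate 2 (-0.54), and that of Ppargc1a without any library except day 7 replicate 1 (-0.71 to -1.05).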

How the results depend on the processing

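No called member changed direction under any alternative. Of 354 recomputed values of the calls against day 0, 41 lost the call, a tally that leaves out the calls between later days given below. Of the 18 calls against day 0, 4 held under all alternatives run (Acaa1b at 3 days, Acsl1 at day 14). At days 7, 14 and 21, 3, 6 and 9 members were called. Without a fold threshold 6, 14 and 13 passed, and with glmTreat 1, 3 and 3. With the adipocyte sum as a covariate, which did not overlap between day 0 and days 14 or 21, 2 were called at days 14 and 21 each, and of the 4 and 7 lost 2 and 4 stayed past the fold threshold, with larger standard errors. Within libraries under 2.5% in mitochondrial share 5 were called at day 7. Between days 7 and 14 the 4 calls became 8 without a fold threshold, and 0 with glmTreat, the mitochondrial share or adipocyte sum as a covariate, or without the 2 libraries of highest cardiac signal. In the adipocyte fit 3 of these 4 stayed past the fold threshold. Leaving out single libraries gave 0 to 4. The 9 calls between days 7 and 21 became 15 without a fold threshold, 0 with glmTreat or the adipocyte covariate (6 of the 9 past the fold threshold in the latter, with standard errors 1.38 to 1.62 times as large), 6 with the mitochondrial covariate, and 5 without the 2 cardiac libraries (4 of the 9, and Acaa2). The wider list's 11, 21 and 15 calls at days 7, 14 and 21 became 22, 36 and 27 without a fold threshold, 0, 6 and 8 with glmTreat, and 5, 0 and 2 with the adipocyte covariate. They were 5 at day 7 with the mitochondrial covariate, and 12 at day 14 within libraries over 3.5%. Single libraries left out gave 7 to 14 at day 7. The cause of these shifts was not tested.

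Compartment medians also moved. The mitochondrial median at day 7 (0.10) was 0.019 with the mitochondrial covariate and -0.029 within libraries under 2.5%, and at day 14 (-0.08) it was 0.067 within those over 3.5%. Left-out libraries gave 0.032 to 0.14 at day 7 and -0.29 to -0.15 at day 21. The peroxisomal median at day 7 (0.07) was -0.024 with the mitochondrial covariate. At day 14 (-0.32) it was -0.35 for genes of at least 1 CPM, -0.35 with the cardiac covariate, -0.18 within libraries over 3.5% and -0.27 with Eci2 and Crat included, and left-out libraries gave -0.37 to -0.29. At day 21 (-0.52) it was -0.68 with the adipocyte covariate and -0.35 with Eci2 and Crat included.

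Whether replicate numbers pair the libraries was not settled. Correlations of same-numbered deviations ran from -0.24 to 0.40, with 8 of 21 over 0.1, and those of other pairs from -0.33 to 0.26. Of the 15 libraries, 7 correlated best with their own number. With the replicate block 3, 6 and 8 members were called at days 7, 14 and 21, Ppargc1a being lost at day 21, and 4, 0 and 9 between days 7 and 14, 14 and 21, and 7 and 21. Among the members, depth limits Etfb, Ppara and late Acaa1b, which had as few as 3, 9 and 10 counts in a library.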
